A study of Bos taurus with 40 samples.

Results

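Strips of bovine tracheal smooth muscle contracted with carbachol were compared with and without cyclic stretch, to ask which transcripts respond to length oscillation in airway muscle that is under muscarinic tone. The comparison takes the strips whose titles name carbachol and either stretched or unstretched, which are 10 of the study's 20 strips and 20 of its 40 labelled samples. Each of 5 animals gave 1 strip to each group, so stretched and unstretched strips were paired by the animal number. The unstretched strips were kept in physiological salt solution with 1 µM carbachol and no mechanical stretch. The stretched strips had the same drug and a sinusoidal length oscillation of 10% of muscle length at 1 Hz. For oscillation the strips were first loaded to 12 g and left to equilibrate for 1 h, and the labels do not say whether the unstretched strips were handled in that way. The other 10 strips, stretched or unstretched in salt solution without drug, are called saline strips and serve here only for contrast. All tissue came from slaughterhouse tracheae, and neither the age, sex and breed of the animals nor the duration of the treatments was found in the labels.

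Carbachol acts on the muscarinic acetylcholine receptors of airway muscle, which raise cell calcium through phospholipase C and also activate protein kinase C, and the muscle contracts. Stretch reaches the cytoskeleton of a contracted cell through integrins, the heterodimeric matrix receptors at its adhesion sites, and is passed on to kinase cascades such as the MAP kinases. A contracted strip is stiffer than a resting strip, so the same length oscillation loads its adhesion sites and contractile filaments differently.

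The RNA of a strip was labelled in Cy3 for 1 array and in Cy5 for another, and the value of a strip is the mean of both labellings on a normalized log2 intensity scale. The carbachol strips lay on 17 of the 20 arrays, with readings for 334 to 575 of 1040 spots per labelled sample and a median reading between 1046 and 4041.5. Neighbouring odd and even spots are duplicates and were averaged, and 190 of 520 spot pairs had enough values for a test. Of these features 6 carry a gene name (PRKCE, BRAF, ITGA6, ITGA9, ITGA11 and RPL28), and the other 184 are given by their spot numbers. The label of airway smooth muscle could not be checked, since 0 of 5 smooth muscle markers and 0 of 15 markers of epithelium, fibroblasts, endothelium, leukocytes and nerve are among the named spots. In whole strips a change in the cells present and a change in RNA per cell cannot be told apart.

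The labellings of some strips disagreed. Over the 118 features measured in all 20 strips, and after each feature's mean was removed, the Cy3 and Cy5 profiles of the same carbachol strip correlated at a median of 0.57, with a range of -0.0030 to 0.84. The lowest values belonged to the stretched strips of animals 1 and 4, at -0.0030 and 0.036, whereas the unstretched strips of animals 1 and 2 gave 0.84 and 0.80. The saline strips spanned -0.11 to 0.93, so the poor agreement was not limited to carbachol. Labels were used as given, and whether a column carries a wrong label was not tested. Only animal 2 had both of its carbachol strips on the same array, array 8. In animals 1, 4 and 5 the unstretched carbachol strip was always hybridised together with the stretched saline strip, so in these animals the stretch change could be read only between arrays, and array and stretch cannot be told apart. Results are therefore also given by dye, without single arrays and, for animals 2 and 3, from ratios within arrays.

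In carbachol-contracted muscle 2 of 190 features rose with stretch and 0 fell (limma, adjusted p under 0.05), which is 1.05% of the features tested. They were PRKCE, the gene of protein kinase C epsilon, which is activated by diacylglycerol without calcium, and the unnamed spots 7 and 8. At an unadjusted p under 0.05 there were 16 features, or 8.42%, with 15 higher and 1 lower. The median change over all features was 0.027 on the log2 scale, and 143 of 190 features changed by less than 0.25 in either direction. Changes above 0.5 were measured for 14 features and changes below -0.5 for 1.

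PRKCE read 11.16, 10.15, 10.73, 10.83 and 10.84 in the unstretched carbachol strips of animals 1 to 5. With stretch it read 11.89, 10.75, 11.28, 11.24 and 11.89. The stretched strip was the higher of the pair in 5 of 5 animals, but the groups overlapped, because the stretched strip of animal 2 lay below the unstretched strips of animals 1, 4 and 5. The means were 10.74 ± 0.37 (SD, n = 5) and 11.41 ± 0.49 (SD, n = 5). The fitted change was 0.67 ± 0.14 (SE) on the log2 scale, a fold of 1.59, with a 95% interval of 0.37 to 0.96 and an adjusted p of 0.0175 in limma. The changes of single animals were 0.73, 0.60, 0.55, 0.41 and 1.06, and their SD of 0.24 was smaller than the mean change.

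**Figure D1:**
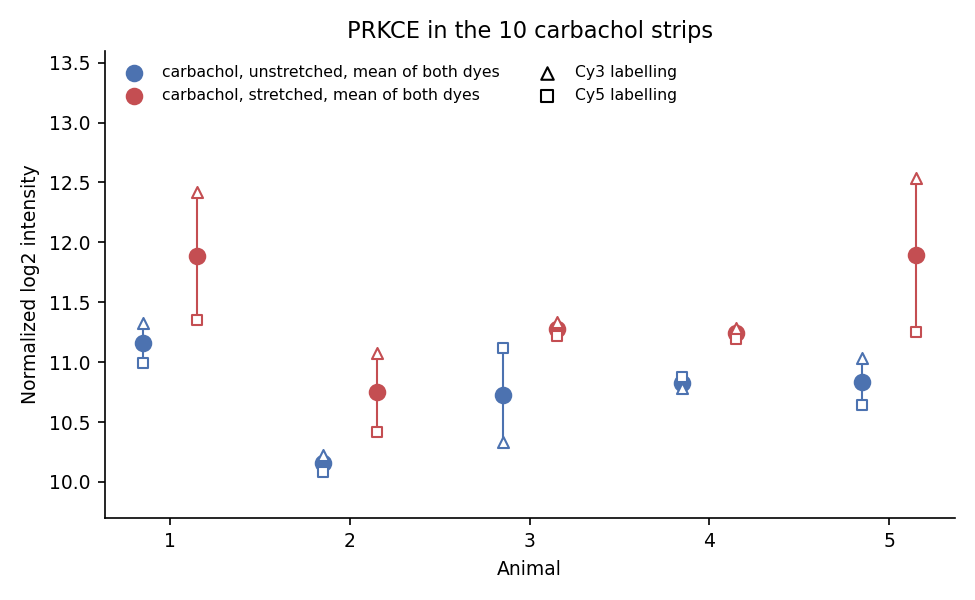
Normalized log2 intensity of PRKCE in each carbachol strip, by animal. Filled circles are the mean of both labellings of a strip, open triangles the Cy3 and open squares the Cy5 value, with a line joining them. Stretched strips lie above unstretched strips of the same animal in 5 of 5 animals, and the Cy3 value lies far above the Cy5 value in the stretched strips of animals 1 and 5.

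The size of the PRKCE change depended on the dye. The Cy3 values gave a mean change of 0.99 and the Cy5 values 0.35, each with the stretched strip higher in 5 of 5 animals. In the stretched strips of animals 1, 2 and 5 the Cy5 value was lower than the Cy3 value by 1.07, 0.66 and 1.29, whereas in those of animals 3 and 4 the labellings lay within 0.12. Raw readings of the stretched strip of animal 5 were 7209 and 6331 in Cy3 and 3845 and 3094 in Cy5. From Cy5 alone the adjusted p was 0.974. Without the replicate block, that is without pairing strips by animal, it was 0.551 at the same change of 0.67. In the fit of carbachol strips alone it was 0.252. The call was also lost without animal 3 (0.0694) or animal 5 (0.158), and without array 2, 6, 12, 15 or 19 (0.0504 to 0.198). Other losses came with quantile normalization (0.122), without scaling between arrays (0.0886) and with arrays as a random block (0.172). Animals 1 to 3 alone gave 0.279, and animals 4 and 5 alone 0.137. Of the 43 alternative analyses 28 kept the call. These were 13 of the 23 fixed before the data were seen and 15 of the 20 that each left out 1 array. The change was positive in all 43, from 0.35 to 1.01.

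Spots 7 and 8 had the smallest p. In unstretched carbachol strips they read 10.28, 9.93, 9.90, 10.42 and 10.77 in animals 1 to 5. In stretched strips they read 11.52, 12.70, 12.80 and 11.79 in animals 1, 2, 3 and 5, and in animal 4 only the Cy5 labelling had a value, 11.62, which the main analysis does not use. The stretched strips were higher in 4 of 4 complete pairs, and the groups did not overlap. Of the 190 features this pair alone was separate in that direction (0.526%), and 1 feature was separate in the lower direction. The fitted change was 1.93 ± 0.28 (SE), a fold of 3.80, with a 95% interval of 1.33 to 2.52 and an adjusted p of 9.84e-04 in limma. Raw readings ran from 598 to 1748 in unstretched strips and from 2581 to 10731 in stretched strips, so that the ranges were separate before any normalization.

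Animals differed in how far spots 7 and 8 rose. The changes were 2.78 and 2.90 in animals 2 and 3, and 1.25 and 1.02 in animals 1 and 5. The mean change was 1.80 from Cy3 in 4 animals and 1.98 from Cy5 in 5 animals. Single strips differed by dye all the same: Cy5 minus Cy3 was 0.61, 0.90, -0.65 and 0.66 in the stretched strips of animals 1, 2, 3 and 5. The call held without each of the 20 arrays in turn, with adjusted p of at most 0.00360, and without each animal, where the highest was 0.0485 (without animal 3). It was lost in 1 of 41 alternatives, the fit of carbachol strips alone, with a change of 1.98 and an adjusted p of 0.110. The SE, interval and p of the main fit pool the spread of saline and carbachol strips. The SD between animals of this change was 0.99 in carbachol and 0.27 in saline.

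Spots 67 and 68 had the largest change and did not pass. They read 12.89, 10.97, 12.30, 14.36 and 14.92 in the unstretched strips of animals 1 to 5, and 13.998, 16.10, 15.17, 14.56 and 15.32 in the stretched strips. Every stretched strip was higher than its partner, but by 5.13 and 2.87 in animals 2 and 3, by 1.11 in animal 1, and by only 0.20 and 0.40 in animals 4 and 5. The fitted change was 1.94 ± 0.51 (SE), with an adjusted p of 0.0697. The small changes of animals 4 and 5 went with high unstretched strips: these lay above the saline unstretched strips of the same animals by 2.29 and 1.87, against 0.37, 0.09 and 0.44 in animals 1, 2 and 3. Their stretched strips lay within 0.44 of the stretched saline strips. The unstretched carbachol strips of animals 4 and 5 shared their arrays with those stretched saline strips, and the part of the arrays in this was not tested. In stretched strips 5 of 20 raw readings were above 60000. That is near the highest reading of any spot, and if such readings were saturated, the changes of this pair in those strips are lower bounds.

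The labellings of spots 67 and 68 disagreed most in the strips already named. The stretched strip of animal 1 read 12.52 in Cy3, on array 6, and 15.48 in Cy5, on array 12. That of animal 4 read 13.62 in Cy3, on array 14, and 15.50 in Cy5, on array 15. Without array 6 the fitted change was 2.32 with an adjusted p of 0.0210, and without array 14 it was 2.13 with an adjusted p of 0.0180. Over all 43 alternatives 8 passed, and the change ranged from 0.30 in animals 4 and 5 alone to 3.04 in animals 1 to 3 alone.

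Spots 35 and 36 followed the same order of animals. They read 12.46, 11.09, 11.46, 12.85 and 13.50 without stretch and 13.11, 15.03, 14.42, 13.14 and 14.04 with stretch. The differences were 3.94 and 2.96 in animals 2 and 3 and 0.64, 0.29 and 0.54 in animals 1, 4 and 5. At 1.67 ± 0.41 (SE) and an adjusted p of 0.0522 this pair missed the threshold narrowly, and 14 of 43 alternatives put it past. The unstretched carbachol strips of animals 4 and 5 again lay above their saline counterparts, by 1.78 and 1.52.

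Spots 955 and 956 were higher with stretch in 3 of 5 animals. They read 14.04, 12.21, 12.30, 14.31 and 13.65 without stretch and 13.92, 15.24, 14.33, 13.76 and 14.39 with stretch. The changes of 3.03 and 2.03 in animals 2 and 3 stood against -0.12, -0.55 and 0.74 in animals 1, 4 and 5, and the fitted 1.03 ± 0.37 (SE) had an adjusted p of 0.361. The SD between animals of the stretch change of this pair was 1.49 in carbachol and 0.43 in saline. It was 2.07 and 0.59 at spots 67 and 68, while spots 35 and 36 gave 1.66 and 0.26. At spots 7 and 8 it was 0.99 in carbachol and 0.27 in saline. PRKCE went the other way, with 0.24 in carbachol and 0.35 in saline. The fit shares 1 spread per feature between drug states. At these unnamed pairs the SEs in carbachol therefore also rest on the less variable saline strips. Over the 118 features with all strips the median SD was 0.44 in carbachol and 0.36 in saline, and 80 features had the larger SD in carbachol. The array layout differed between the drug states. In saline both strips of animal 2 shared array 2 and both of animal 3 shared array 5, while in carbachol only animal 2 had such an array. The part of layout and labelling in these SDs was not tested.

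**Figure D2:**
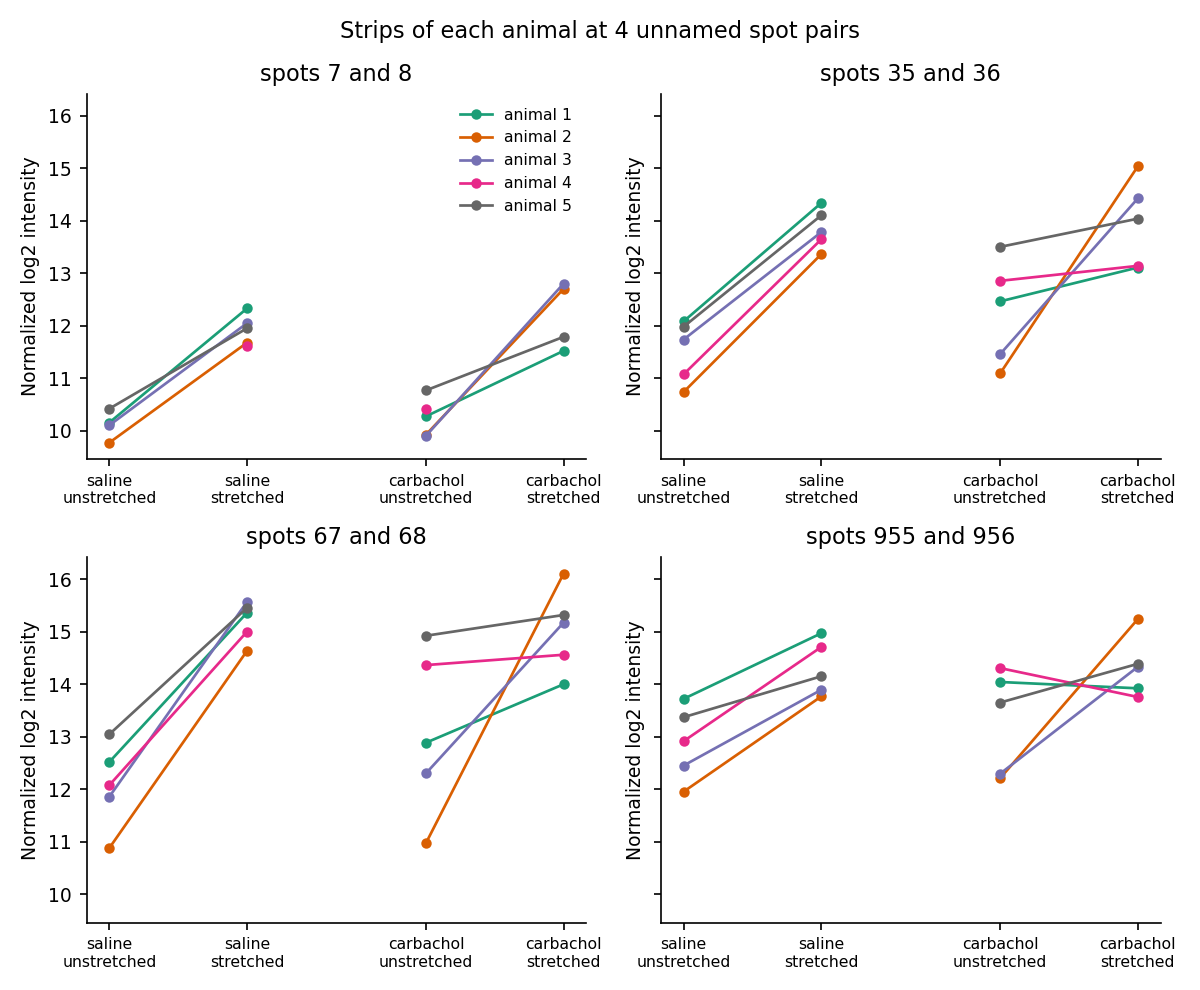
Normalized log2 intensity at 4 unnamed spot pairs in all strips, with a line joining the unstretched and stretched strip of an animal in saline (left) and in carbachol (right). Lines run nearly parallel in saline, while in carbachol the lines of animals 2 and 3 are steep, and those of animals 4 and 5 start high and are flatter at spots 35 and 36 and at spots 67 and 68. At spots 7 and 8 animal 4 lacks a line because 2 of its strips had only 1 labelling.

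Of the other pairs with the smallest p among those that were higher, spots 93 and 94 were higher in 5 of 5 animals, with a change of 0.55 ± 0.15 (SE) and an adjusted p of 0.0847. Its unstretched strips read 11.43, 11.14, 10.88, 11.09 and 11.26 and its stretched strips 11.80, 11.29, 12.23, 11.67 and 11.55. Spots 925 and 926 changed by 0.61 ± 0.20 (SE), higher in 4 of 5 animals and lower by 0.64 in animal 2. For spots 55 and 56 the change was 0.71 ± 0.27 (SE), with 8 of 20 raw readings of stretched strips above 60000. The changes of spots 319 and 320 and of spots 223 and 224 were 0.61 ± 0.23 and 0.34 ± 0.13 (SE). These last 4 pairs had adjusted p of 0.225 or 0.361.

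The 10 pairs with the smallest p among those that were lower had changes between -0.57 and -0.17, and none passed (adjusted p from 0.410 to 0.656). Spots 747 and 748 had the smallest p of them, at -0.42 ± 0.17 (SE), lower in 4 of 5 animals. Spots 1027 and 1028 had the lowest change of all features, -0.57 ± 0.30 (SE). Single animals ranged there from -1.63 in animal 4 to 0.93 in animal 2. The odd and even spot of this pair did not always agree, as at 11791 and 3692 in Cy3 of the unstretched strip of animal 1. In the stretched strip of animal 4 the Cy3 value rests on 1 spot, which read 800, and Cy5 minus Cy3 was 0.94. Among the 118 features with 5 complete pairs, 5 were higher in 5 of 5 animals (4.24%) and 1 was lower in 5 of 5 (0.847%). The 5 were PRKCE, spots 35 and 36, 67 and 68, 93 and 94, and spots 131 and 132, whose change was only 0.14 and in animal 2 close to 0, and the 1 was spots 231 and 232 at -0.12. The last 2 are named after their values were seen.

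**Figure D3:**
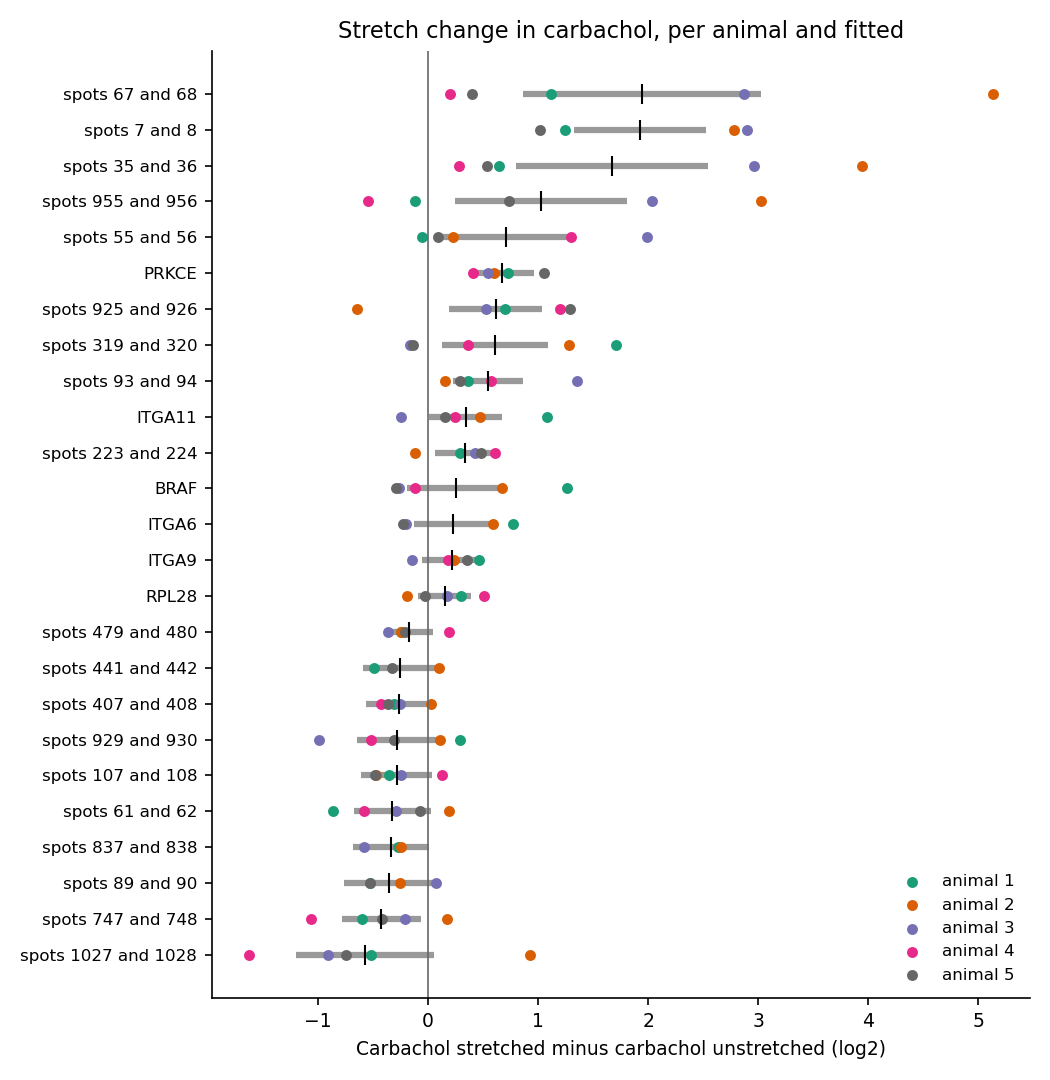
Log2 difference between the stretched and the unstretched carbachol strip of each animal (coloured points) for the 25 features named by the rule, with the fitted change (black tick) and its 95% interval (grey bar). The interval of PRKCE is narrow, at 0.37 to 0.96, while the animals are spread from 0.20 to 5.13 at spots 67 and 68.

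The integrin alpha subunits were measured next, as parts of the matrix receptors that bear load at adhesion sites. ITGA11, the alpha subunit of a collagen receptor, read 9.18, 10.17, 10.32, 10.22 and 10.35 without stretch and 10.26, 10.64, 10.07, 10.46 and 10.50 with stretch. Its change of 0.34 ± 0.16 (SE) had an unadjusted p of 0.0449 and an adjusted p of 0.533. Animal 1 gave 1.08 and the others -0.25 to 0.48. The low unstretched value of animal 1 was shared by the stretched saline strip of that animal, 9.19, which lay on the same arrays 1 and 4.

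ITGA9, whose subunit pairs with integrin beta 1, changed by 0.22 ± 0.13 (SE), higher in 4 of 5 animals. ITGA6, a laminin receptor subunit, changed by 0.23 ± 0.17 (SE), higher in 2 of 4 animals. Neither passed (adjusted p = 0.656 and 0.731). Of the 24 genes on the list of integrins, focal adhesion and caveolae, 5 are among the named spots and 3 were tested. 0 of the 3 passed, beside 1.05% of all features, and their median change was 0.23, beside 0.027 over all features.

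BRAF, a kinase that activates the MAP kinase cascade, read 10.13, 11.20, 11.36, 11.14 and 11.46 without stretch and 11.39, 11.87, 11.10, 11.02 and 11.17 with stretch. It was higher in animals 1 and 2, by 1.26 and 0.68, and lower in animals 3, 4 and 5, by 0.12 to 0.29. The fitted change of 0.25 ± 0.21 (SE) did not pass (adjusted p = 0.750). As for ITGA11, the low unstretched value of animal 1 had a counterpart in the stretched saline strip on the same arrays, which read 9.80. RPL28, a protein of the large ribosomal subunit, changed by 0.15 ± 0.11 (SE, adjusted p = 0.731). Of the 26 genes listed for protein kinase C and MAP kinase signalling 4 are named on the array and 2 were tested, of which PRKCE rose, beside 1.05% of all features.

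PRKAR1A, the type I alpha regulatory subunit of the cAMP-dependent kinase, had values on 17 arrays, and was not tested because only 2 unstretched saline strips were measured in both dyes. Its changes were 0.61, 0.13 and -0.13 in animals 1, 2 and 3, the complete pairs of carbachol strips. CAV2, PAK3, XPO7, ACTN3, ANAPC1, ITCH and MAP3K5 had no value in any carbachol strip by both labellings. The lists of muscarinic receptors (3 genes), contractile genes (8) and cytokines and inflammatory genes (12) had 0 members among the named spots.

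Animals agreed only in part across the array. Over features, the stretch changes of 2 animals correlated between -0.37 (animals 2 and 4) and 0.40 (animals 2 and 3). These are descriptions over 123 to 187 features that share arrays and normalization. The median change of an animal lay between -0.16 in animal 3 and 0.16 in animal 1. The spread over features was widest in animal 3, with an SD of 0.79, and narrowest in animal 5, with 0.38. Animals 1 to 3 had been hybridised to arrays 1 to 12, and arrays 13 to 20 held animals 4 and 5. For PRKCE the first set of animals averaged 0.62 and the other set 0.73, with a difference of 0.11 (adjusted p = 0.945). In the test of that difference 0 of 118 features passed in limma (0%), with a lowest adjusted p of 0.0722 and 15 features under 0.05 before adjustment. The largest of the pairs above, spots 67 and 68, gave a difference of -2.74 for animals 4 and 5 minus animals 1 to 3 (adjusted p = 0.162).

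Ratios within arrays gave a chained reading for animals 2 and 3, whose strips are linked through 10 arrays. Only animal 2 had a direct ratio, on array 8. For animal 3 the shortest link ran over arrays 12 and 6, through the stretched strip of animal 1. The labellings of that strip correlated at -0.0030. Its Cy5 minus Cy3 was 2.97 at spots 67 and 68 and -1.07 at PRKCE, and such differences enter the values of animal 3. Spots 7 and 8 rose by 2.87 and 3.20 in this reading, against 2.78 and 2.90 across arrays. Spots 67 and 68 were higher with stretch by 5.01 and 4.30, and spots 35 and 36 by 3.47 and 2.89. PRKCE rose by less than across arrays, 0.44 in animal 2 and 0.30 in animal 3, against 0.60 and 0.55. On array 8, which held both carbachol strips of animal 2, the log2 ratio of stretched to unstretched was 2.95 for spots 7 and 8, 5.32 for spots 67 and 68 and 0.20 for PRKCE. The stretched strip was in Cy5 and the unstretched strip in Cy3 there, with no dye swap, so dye and stretch cannot be told apart on that array. ITGA9 had within-array changes of -0.15 and -0.30, against 0.23 and -0.14 across arrays. Over features, within-array and across-array changes correlated at 0.91 in animal 2 and 0.82 in animal 3, which are descriptions, since both use the same readings.

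**Figure D4:**
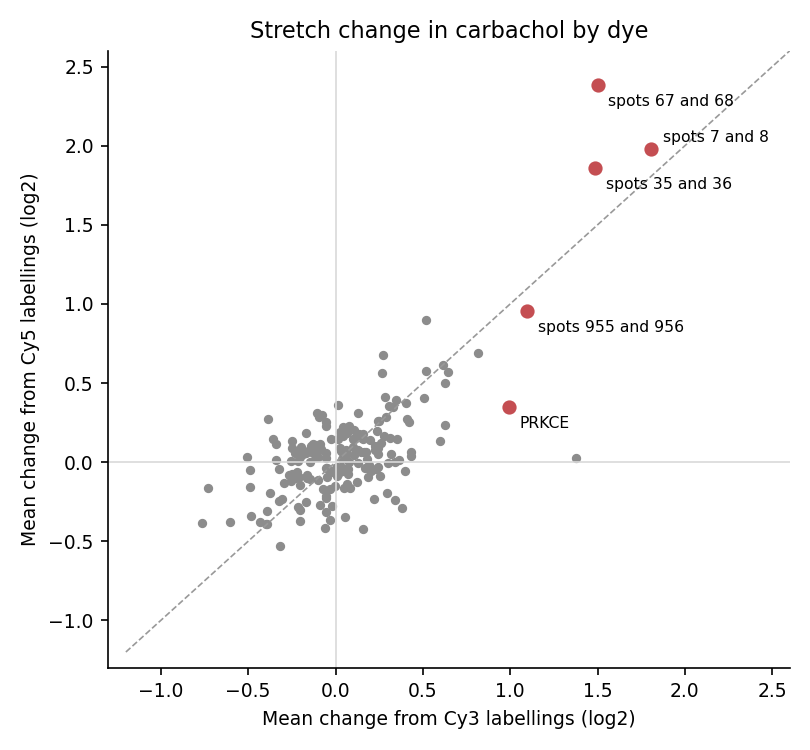
Mean stretch change in carbachol from Cy5 labellings against that from Cy3 labellings, each the mean log2 difference over animals, for 190 features. PRKCE lies well below the dashed line of equality, at 0.99 in Cy3 and 0.35 in Cy5, and spots 67 and 68 lie above it, with 2.38 in Cy5.

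Set beside the same stretch in saline, the features that rose in carbachol had also risen there. In saline 4 of 190 features rose (2.11%) and 0 fell. PRKCE changed by 0.59 ± 0.14 (SE) in saline and 0.67 in carbachol, a difference of 0.08 with a 95% interval of -0.34 to 0.50. Spots 7 and 8 changed by 1.83 and 1.93, a difference of 0.10 with an interval of -0.77 to 0.96. Spots 67 and 68 changed by 3.13 and 1.94, a difference of -1.18 with an interval of -2.71 to 0.34, and spots 35 and 36 by 2.32 and 1.67, with -1.88 to 0.58 around -0.65. These intervals leave room for sizeable differences in either direction.

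No feature passed the test of the difference between drug states (0 of 190 in limma, 0%), and 9 had an unadjusted p under 0.05 (4.74%). Spots 319 and 320 came first, with 0.61 in carbachol and -0.55 in saline, a difference of 1.15 ± 0.32 (SE, adjusted p = 0.423). In saline this pair was lower with stretch in every animal, by 0.11 to 1.12, while in carbachol it was higher in 3 of 5. The widest changes, 1.70 in carbachol and -1.12 in saline, came from animal 1. Its unstretched carbachol strip (9.40) and stretched saline strip (9.29) were both low and shared arrays 1 and 4. ITGA11 had 0.34 in carbachol and -0.24 in saline, with 1.08 and -0.73 in animal 1, whose unstretched carbachol and stretched saline strips were both low on arrays 1 and 4. In animals 4 and 5 the difference between drug states lies wholly between arrays, since the strips that enter it with the same sign shared arrays, and in animal 1 this holds for the unstretched carbachol and stretched saline strips. Over all features the changes in both drug states correlated at 0.64, and at 0.25 over the 186 features left without the 4 called in either. The states use different strips but the same animals, and many strips of one state shared arrays with strips of the other, so both values are descriptions.

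**Figure D5:**
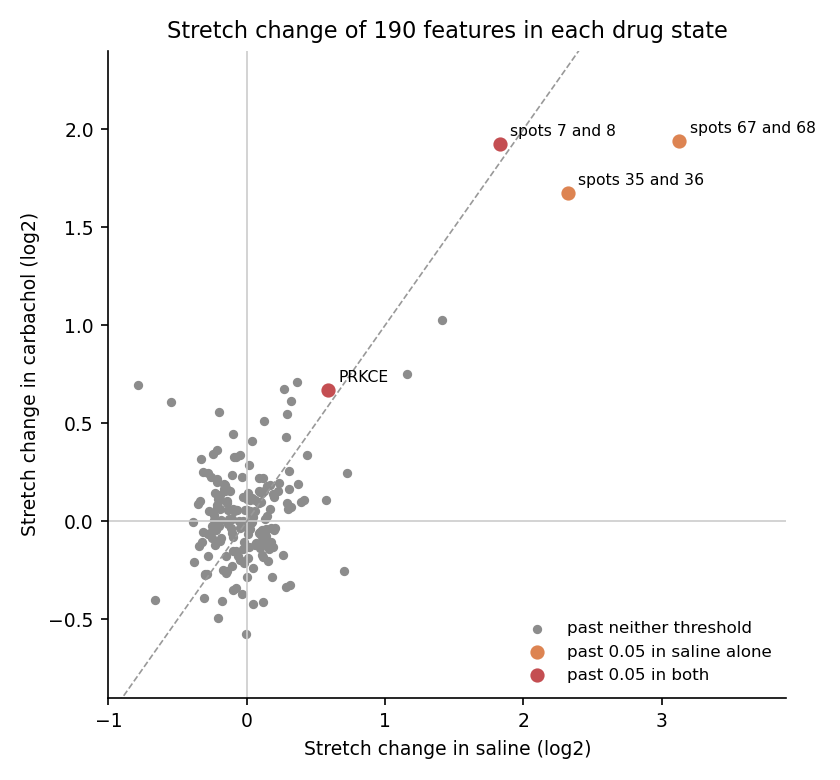
Fitted log2 stretch change in carbachol against that in saline for 190 features, with the dashed line of equality. PRKCE and spots 7 and 8 lie on or near the line, and spots 35 and 36 and 67 and 68 lie below it. Most other features lie around 0 on both axes.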

How the data were processed

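The deposited values are spot intensity readings, 1 column per dye channel. Amplified RNA carried amino allyl groups to which Cy3 or Cy5 was coupled, per the labels' protocols. Scanner, background treatment and the rule for blank cells: not given in the sources used here. No normalization by the authors was visible. Values were taken to log2, corrected within each array by loess (span 0.4, 4 iterations), and shifted per array by the median deviation over 193 spots measured on all arrays. Duplicate spots and both dyes of an RNA were averaged, with both dyes required. Features needed 3 animals per group.

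Tests used limma 3.58.1 (lmFit, eBayes) under R 4.3.3 (random array block with statmod 1.5.0, figures with matplotlib 3.10.9). All 20 strips entered, with treatment and the animal as a fixed block, since each animal's muscle received all treatments per the design text. Beyond the animal, strips were treated as independent, although many shared arrays. In the fit of 40 channels the 2 channels of an array correlated at 0.74. The SEs, intervals and p values of the main fit do not allow for this. Benjamini-Hochberg adjustment covered 190 features, two-sided, at 0.05. Replicates are animals, and their number limits precision. Deviations of same-animal strips correlated at 0.51 on average, those of the 2 carbachol strips at -0.092 to 0.67. Since some same-animal strips shared arrays, likeness by animal and by array cannot be told apart in the average. The fit was run on simulated strips with independent noise of equal spread, without shared arrays or dye differences. That run does not show how the fit behaves where these are present.

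Named are features past the threshold in carbachol or saline, the 10 with the smallest p in each direction, and all genes with names. Names come from the platform annotation, which can be old and covers 30 spots of 14 genes. The groups compared, the lists and the rule were chosen with earlier results of these data known. Probe sequences and genome positions are not used here.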

Additional observations from a re-analysis of the deposited data

Results flagged for a closer look

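By Dixon's criterion, applied to 41 sets of per-animal changes or strip values, 3 held a sample far from the others, and chance flags about 1 in 20 such sets. ITGA11 read 9.18 in the unstretched carbachol strip of animal 1, against 10.17 to 10.35 in the other animals. BRAF read 10.13 in that strip, against 11.14 to 11.46. At spots 479 and 480 animal 4 had a change of 0.19, against -0.37 to -0.21 in the other animals.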

How the results depend on the processing

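Leaving out each array was chosen after seeing the data, and the other alternatives were fixed earlier. Counts of calls in carbachol, 2 as reported, were 1 without the replicate block, 1 with quantile normalization, 1 among features with all strips (spots 7 and 8 are not among them), 0 with carbachol strips alone, 4 in animals 4 and 5 alone, and 8 (7 higher, 1 lower) with arrays as a random block on 40 channels. PRKCE was among neither the 4 nor the 8. Spots 7 and 8 were not tested in animals 4 and 5 alone, because 2 strips of animal 4 had only 1 labelling there. That block, which counts both labellings of an RNA separately, gave 28 for saline (17 higher, 11 lower). Animals 4 and 5 alone gave 5 for the difference between drug states. The replicate block altered no other count by over 1.5 times. Leaving out each animal gave 1 to 6 in carbachol (6 without animal 2, 4 without animal 4, 1 without animal 3 or 5), and each array 1 to 4 (1 without array 2, 12, 15 or 19, 4 without array 9, 14, 17 or 20). Of 382 alternatives for 9 features, 343 left direction and call status unchanged, 16 lost a call, 22 gained one, and 1 reversed. The 343 include features that were not called and stayed so. Only 2 of the 9 were called as reported, and the call was kept in 40 of 41 alternatives for spots 7 and 8 and in 28 of 43 for PRKCE. BRAF was the one reversed, at -0.20 in animals 4 and 5 alone. Without scaling between arrays the median change moved to 0.22, PRKCE stood at 0.83 and its adjusted p at 0.0886. Within-array values covered animals 2 and 3 only. Causes were not tested. Signal over background is unknown.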
